A study of Arabidopsis thaliana with 6 samples.

Results

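The wild-type background regions were the stretches of the *Arabidopsis thaliana* genome that anti-GFP chromatin immunoprecipitation followed by sequencing (ChIP-seq) recovered from plants carrying no GFP. They were defined as every stretch covered by deposited peaks of at least 2 of the 3 wild-type libraries, whatever the strength of the peak. There were 496 such regions. The series held 2191 stretches under a peak of any of the 6 libraries and 858 under a peak of any wild-type library. Such a stretch can hold several regions. Of the 858, the 437 that held no region met a peak of 1 wild-type library alone and served for comparison.

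The transgenic plants carried the *ath1-3* mutation and a transgene in which the *ATH1* promoter drives the homeodomain protein ATH1 fused to GFP (*pATH1:ATH1-GFP*). A single line with this transgene was used for ChIP-seq. The wild-type plants had no GFP and were the epitope-negative controls. The sample labels give the wild type as Landsberg-*erecta* and the series design and the study's methods as Columbia, so accession and transgene cannot be told apart here if the sample labels are right. By the labels, both groups (n = 3 each) were grown for 2 weeks with 16 h of light, and 1 to 2 g of seedlings per replicate were stripped of leaves and roots before ChIP with anti-GFP microbeads; the study's methods describe other growth conditions.

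Immunoprecipitation always carries some chromatin that the antibody does not recognise, through unspecific binding to beads or antibody, easier shearing and recovery of open chromatin, and reads from repeated sequences that the assembly represents by fewer copies than the genome holds. Such signal recurs at the same places in independent experiments, which is why plants or cells lacking the epitope are carried through the same protocol. Open, highly transcribed genes, ribosomal DNA, centromeric repeats and organellar DNA inserted in the nucleus are places where such signal is known to gather.

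The ATH1-GFP libraries had 10194418 to 15584829 tags after duplicates were removed and 1029 to 1634 peaks. Wild type 1 had 3450182 tags and 361 peaks, wild type 2 had 13518524 tags and 688 peaks, and wild type 3 had 6689302 tags and 503 peaks. Wild type 1 stood apart from the other libraries, as only 19.9% of its mapped tags remained after duplicate removal, against 43.6% to 63.4% in the other 5. Pileup, the number of tags extended to 300 nt that cover a peak's summit, could not exceed 600, because 1 tag was kept per position and strand. Fold enrichment was the pileup over the local level in the same library, as no control library entered peak calling. A peak's pileup and fold are given for each region it covers, and its summit can lie outside the stretch shared by the libraries.

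The regions were short, numerous on every chromosome and unevenly placed. They covered 351199 nt, 0.390% of the effective genome size used in peak calling, and ranged in length from 1 to 6931 nt with a median of 526.5 nt (quartiles 354 and 784 nt). Only 9 were under 50 nt, while 90 were over 1000 nt and 21 over 2000 nt. Chromosomes 1 to 5 held 106, 84, 98, 87 and 121 regions. At the edge of the rule, 4 regions were 20 nt or shorter, and 7 single-library stretches lay within 50 nt of a peak of another wild-type library.

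How many wild-type libraries shared a region depended on the library. Peaks of all 3 wild-type libraries met at 187 regions, and 253 of the other 309 were shared by wild type 2 and wild type 3 alone, against 27 by wild type 1 and 2 and 29 by wild type 1 and 3. Wild type 3 had 90.9% of its peaks at regions, wild type 1 had 68.1% and wild type 2 had 59.9%. Without wild type 2 the rule left 226 regions, without wild type 3 it left 219, and without wild type 1 it left 447.

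The regions fell into classes with different positions. By the gene positions of the RefSeq table for TAIR10.1, 289 regions (58.3%) lay over a protein-coding gene, 54 over another annotated feature such as a pseudogene, a tRNA gene or a non-coding RNA, and 153 (30.8%) over no annotated gene. An overlap of 1 nt was enough. The share of the genome under genes was not computed, so these shares show no preference for or against genes. The share over protein-coding genes rested on wild type 2 and wild type 3 together, as 223 of the 253 regions that only this pair shared lay over such genes. It was 26.8% among stretches covered by all 3 wild-type libraries, 27.9% without wild type 2 and 26.5% without wild type 3.

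The regions were crowded in a few places. Of 121 bins of 1 Mb, 106 held a region, with a median of 3, and 5 bins with more than 20 regions held 132 of the 496 (26.6%). The fullest were at 11 to 12 Mb of chromosome 5 with 33 regions, at 13 to 14 Mb of chromosome 3 with 30, at 3 to 4 Mb of chromosome 2 with 25, at 12 to 13 Mb of chromosome 5 with 23 and at 3 to 4 Mb of chromosome 4 with 21. In 4 of these 5 bins no region lay over a protein-coding gene. The exception was on chromosome 2, with 14 of 25 regions over such genes, in an interval where the reference assembly is known to hold a copy of mitochondrial DNA.

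Regions were ranked by wild-type pileup per 1000000 filtered tags, averaged over the wild-type libraries with a peak there, a rank that favours peaks of the shallower libraries. At 10 of the 12 highest, the ATH1-GFP libraries also stood near the ceiling. At chr3:13588826-13592599, over no annotated gene, the ATH1-GFP peaks reached 600, 600 and 600 extended tags and the wild-type peaks 598, 599 and 598. The first 10341 nt of chromosome 2 held 4 of the 12 highest regions. Among them, chr2:3232-4992 over *AT2G01010*, a ribosomal RNA gene, had pileups of 600, 600 and 600 in the ATH1-GFP libraries, against 592, 600 and 599 in the wild type. The end of this chromosome is where an array of ribosomal DNA is known to lie. The other 3 lay over *AT2G01008* and *MIR5642b*, over *AT2G01021* and *AT2G03865*, and over *AT2G03875*, *AT2G01023* and *AT2G00340*.

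A second group of very high pileups was on chromosome 3. The regions chr3:14191735-14192787 over *AT3G00650*, chr3:14192892-14195104 over *AT3G00660* and chr3:14201688-14205078 over *AT3G06365* had ATH1-GFP pileups of 586 to 600 and wild-type pileups of 522 to 600. Their fold enrichment was low, from 1.21 to 1.67 in the ATH1-GFP libraries, against 1.23 to 1.70 in the wild type, as the local level it is divided by was high as well. At chr3:7103442-7104827, over *AT3G20362* and the pseudogene *AT3G20365*, the pileups were as high, but the surroundings were not. Fold enrichment there was 7.26, 7.37 and 6.44 in the ATH1-GFP libraries, against 8.84, 6.83 and 8.06 in the wild type.

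Of the 12 highest regions, 10 had a peak in every library. The other 2, chr2:3619693-3619886 and chr2:3620892-3621213, both over *AT2G08986*, had peaks only in wild type 1 (436 and 438) and wild type 3 (445 and 452), and no ATH1-GFP peak. Their fold enrichment was 1.33 to 1.39. The absence of a wild type 2 peak raised their rank, and the region of the pseudogene *AT2G07080*, with higher pileups in every wild-type library (511, 540 and 534), was outside the 12.

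Of the 5 longest regions, 1 lay over a protein-coding gene. The longest, chr4:3054340-3061270 (6931 nt, over the pseudogene *AT4G06477* and 3 other loci), had pileups of 557, 538 and 549 in the ATH1-GFP libraries, against 490, 549 and 456 in the wild type. It was followed by chr4:3950567-3955824 over the pseudogene *AT4G06700* (5258 nt), chr3:13536492-13541469 over *AT3G32990* and 3 further pseudogenes (4978 nt), and chr5:11184580-11188798 over no annotated gene (4219 nt). The fifth, chr1:15081923-15086024 (4102 nt), lay over the protein-coding locus *AT1G40104*. All 5 had peaks in all 6 libraries, at pileups of 479 to 587 in the ATH1-GFP libraries, against 407 to 589 in the wild type.

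**Figure D1:**
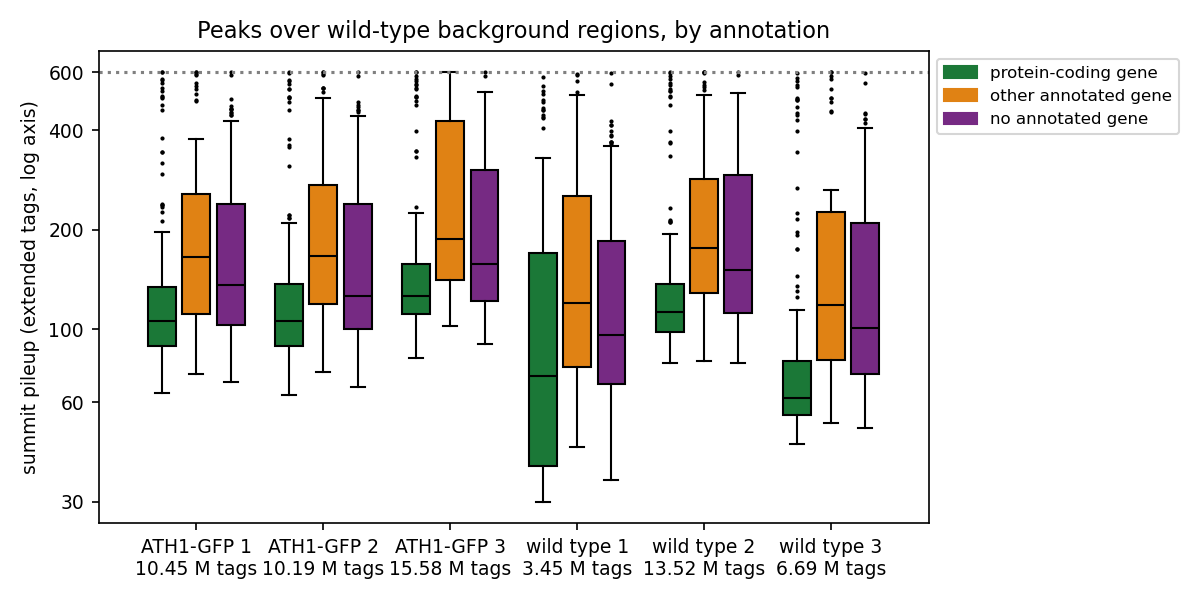
Summit pileup (extended tags, log axis) of the peaks over the background regions in each library, by annotation. Boxes give quartiles with the median as a line, whiskers reach the last value within 1.5 box lengths, points lie beyond, the dotted line is the ceiling of 600, and regions without a peak in that library are left out. In every library the median over protein-coding genes was the lowest of the classes, from 105.5 to 126 in the ATH1-GFP libraries and from 62 to 113 in the wild type.

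Pileup followed the number of filtered tags at some regions and hardly at others. Wild type 1 had 0.255 times the filtered tags of wild type 2. Before duplicate removal the libraries were closer, with 17358358 mapped tags in wild type 1 and 24476917 in wild type 2. Over the 214 regions with a peak of both, the median ratio of their pileups was 0.70, and it was 0.54 over protein-coding genes, 0.82 over other annotated features and 0.70 over no gene. In 108 regions the ratio was at least 0.7, so that the pileup of wild type 1 was nearly that of the deeper library, and 21 of these regions lay over a protein-coding gene. In 27 regions the ratio was at most 0.4, close to the ratio of tags, and 25 of these lay over a protein-coding gene. A peak had to pass the caller in both libraries to be counted, so low pileups in wild type 1 were missing from these ratios.

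The 27 regions, called low-ratio here, were longer and more often in the windows of listed targets than the 108. Their median length was 1219 nt, against 630 nt where the ratio was at least 0.7. Of the 27, 16 lay in the window of a listed ATH1 target and 3 in the crowded bins, while of the 108 it was 4 in a window and 59 in the crowded bins. Of all regions 25% lay in a window, with 37.4% of those over protein-coding genes and 3.92% of those over no gene. The sets also differed in regions over protein-coding genes (25 of 27 and 21 of 108), and the part of this in the contrast was not tested. The cuts of 0.7 and 0.4 were chosen after the values were seen. In the ATH1-GFP libraries, where library 2 had 0.654 times the tags of library 3, the pileup ratios of these libraries were well above the ratio of tags in both sets, with medians of 0.91 over 26 of the 27 regions and 0.93 over 98 of the 108.

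Scaled to filtered tags, the 27 low-ratio regions had overlapping medians in the genotypes. The choice of a low ratio itself brought the scaled levels of wild type 1 and 2 near each other. Scaling to mapped tags, of which wild type 1 kept 19.9%, was not done for these sets. The median scaled pileup was 14.7, 15.0 and 10.7 extended tags per 1000000 filtered tags in ATH1-GFP 1, 2 and 3, and 11.0, 12.3 and 12.9 in wild type 1, 2 and 3. The 108 regions with a ratio of at least 0.7 had medians of 21.7, 21.8 and 18.9 in the ATH1-GFP libraries, against 57.0, 17.1 and 32.2 in the wild type, where the choice by ratio itself set wild type 1 above wild type 2.

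**Figure D2:**
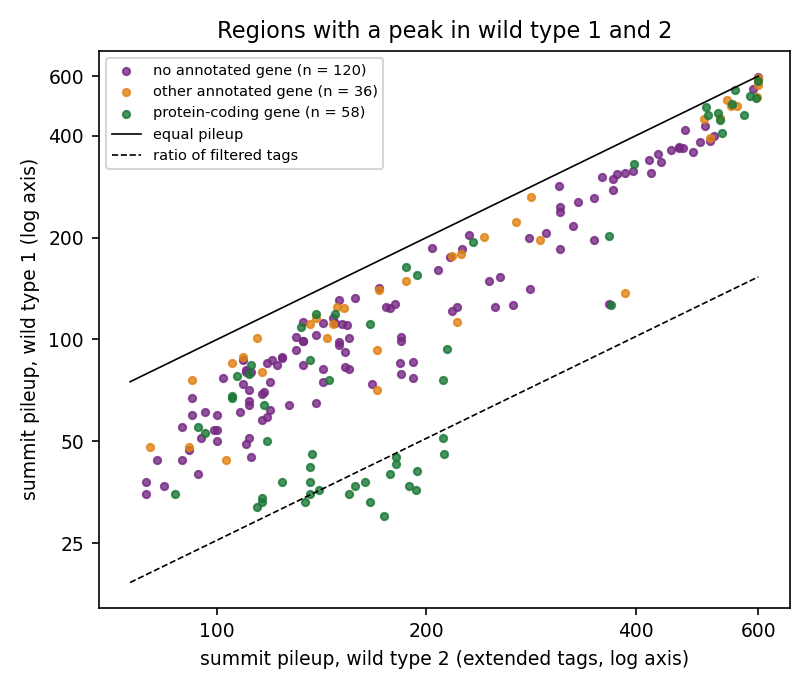
Summit pileup in wild type 1 against wild type 2 (extended tags, both axes log) for the 214 regions with a peak of both libraries, coloured by annotation. The solid line marks equal pileup and the dashed line the ratio of filtered tags, 0.255. Of the 27 regions with a ratio of at most 0.4, 25 lie over protein-coding genes.

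Most background regions also carried ATH1-GFP peaks. The share of regions with a peak was 86.5%, 80.6% and 74.6% in ATH1-GFP 1, 2 and 3 (80.6% ± 5.95, SD, n = 3). Peaks of all 3 ATH1-GFP libraries met at 336 regions (67.7%), and 454 (91.5%) had at least 1, while of the single-library wild-type stretches 18.1% had all 3 and 55.8% at least 1. Where all 3 wild-type libraries had a peak, 174 of 187 regions (93.0%) had peaks of all 3 ATH1-GFP libraries and none had 0. Where 2 wild-type libraries had a peak, it was 162 of 309 (52.4%), and 42 had none. The mean share per ATH1-GFP library was 97.6% for stretches covered by all 3 wild-type libraries, 90.4% without wild type 2 and 93.5% without wild type 3.

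The 42 regions without an ATH1-GFP peak were mostly short, and most had low wild-type pileups. Their median length was 304.5 nt and the longest was 647 nt, against a median of 586.5 nt where all 3 ATH1-GFP libraries had a peak. Wild type 1 had a peak at 14 of them, wild type 2 at 31 and wild type 3 at 39, with median pileups of 60.5, 98 and 57, against 111, 139 and 86 at regions with all 3. The exceptions included the regions over *AT2G08986*, at 436 to 452 in wild type 1 and 3. The regions over no annotated gene had all 3 ATH1-GFP peaks in 79.7% of cases and those over protein-coding genes in 59.9%.

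**Figure D3:**
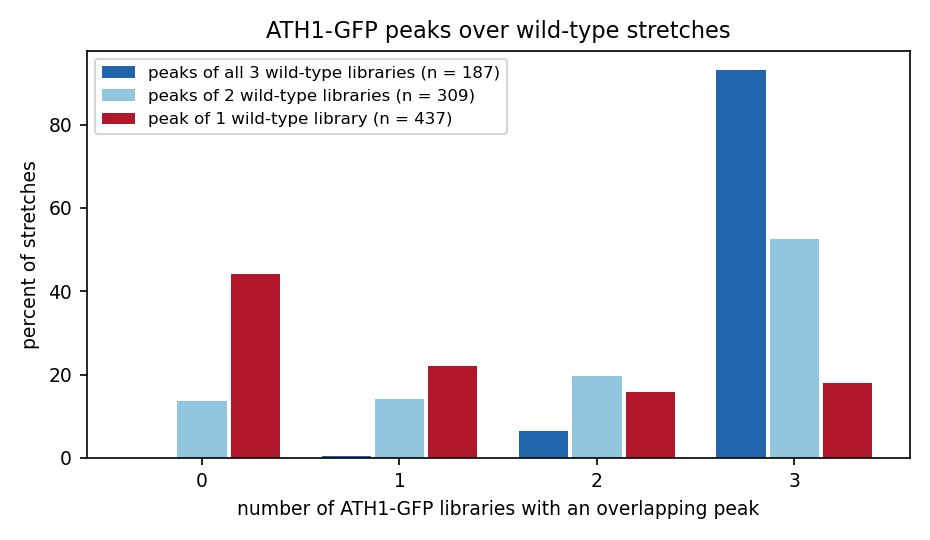
Percent of wild-type stretches with peaks of 0, 1, 2 or 3 ATH1-GFP libraries over them, for stretches under peaks of all 3, of 2 and of 1 wild-type library. Of the stretches shared by all 3 wild-type libraries 93.0% had peaks of all 3 ATH1-GFP libraries, against 52.4% of those shared by 2 and 18.1% of those in 1.

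To ask whether the ATH1-GFP libraries recovered background regions as often as a further wild-type library did, regions were defined from each pair of wild-type libraries and scored in the libraries that had not defined them. The ATH1-GFP libraries had a peak at 93.1%, 90.0% and 85.1% of these regions, averaged over the pairs (89.4% ± 4.03, SD, n = 3). The left-out wild-type libraries 1, 2 and 3 had one at 43.4%, 87.2% and 87.7% (72.7% ± 25.4, SD, n = 3). The difference was 16.7 percentage points (two-sided exact permutation test, *P* = 0.3, where 0.1 is the smallest value that 3 against 3 libraries allow). It rested largely on wild type 1, the shallowest library, and was 4.51 percentage points when this library was not scored (exact permutation test, *P* = 0.2). Wild type 1 still helped to define the remaining region sets. The left-out wild-type libraries 1, 2 and 3 were scored on different sets, of 447, 226 and 219 regions. The part of depth in the difference of 16.7 percentage points was not tested.

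In each ATH1-GFP library, the peaks at background regions had a higher median fold enrichment, pileup and length than the other peaks. They made up 23.7%, 29.0% and 33.9% of the peaks in ATH1-GFP 1, 2 and 3 (28.9% ± 5.09, SD, n = 3). Of the 1185 stretches shared by at least 2 ATH1-GFP libraries, 380 (32.1%) met a region. Median fold enrichment was 2.37, 2.39 and 2.05 at regions and 2.15, 2.17 and 1.85 at other peaks, a difference of 0.213 ± 0.0132 (SD, n = 3 libraries). Each library showed the difference, but 3 libraries cannot give a two-sided exact sign-flip *P* under the 0.25 that was found.

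Median pileup per 1000000 filtered tags was 11.1, 11.4 and 8.85 at regions and 7.75, 7.85 and 6.54 at other peaks, a difference of 3.08 ± 0.670 (SD, n = 3, exact sign-flip *P* = 0.25). Median peak length was 736.5, 667 and 677 nt at regions and 403, 410 and 400 nt at other peaks, a difference of 289 ± 39.7 nt (SD, n = 3, exact sign-flip *P* = 0.25). A longer peak has more positions at which to meet a region, and the part of length in these differences was not tested. With regions defined by all 3 wild-type libraries the difference in fold enrichment was 0.446 and that in scaled pileup 6.61. It was 0.445 and 6.24 without wild type 2, and 0.360 and 6.02 without wild type 3.

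Among the strongest ATH1-GFP peaks, background regions were frequent. They held 11, 13 and 14 of the 20 peaks of highest fold enrichment in ATH1-GFP 1, 2 and 3. In each wild-type library they held all 20, but the wild-type peaks had themselves defined the regions. Of the peaks with a pileup of at least 550, regions held 12 of 13, 11 of 12 and 14 of 14 in the ATH1-GFP libraries. The highest fold enrichment was 11.1, 11.6 and 9.48 at regions and 7.37, 7.32 and 5.27 at other ATH1-GFP peaks.

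**Figure D4:**
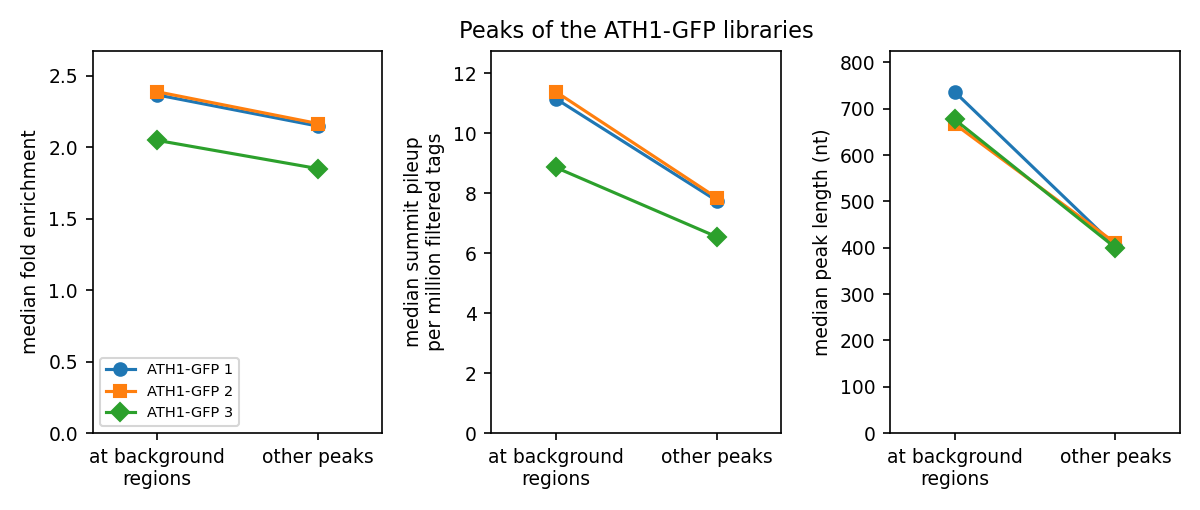
Medians of fold enrichment, of summit pileup per 1000000 filtered tags and of peak length (nt) for the ATH1-GFP peaks at background regions (left of each panel) and for the other ATH1-GFP peaks (right), with 1 line per library. All axes start at 0, and every line is higher at background regions, by 0.213 in fold, 3.08 in scaled pileup and 289 nt in length on average.

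Summits were about as near between the genotypes as within them. At the 159 regions with exactly 1 peak of each library, the median distance between summits was 11 nt for ATH1-GFP with wild type, 8 nt for ATH1-GFP with ATH1-GFP and 11 nt for wild type with wild type. Summits were within 50 nt of each other in 67.2%, 70.9% and 67.9% of these comparisons, and within 100 nt in 72.8%, 77.1% and 72.3%.

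Protein-coding genes under background regions were a small and uneven sample of the genome. In all, 263 of 27432 protein-coding genes (0.959%) and 359 of 37887 annotated genes (0.948%) lay under a region, as did 48 of 4843 pseudogenes (0.991%). Several families of genes that respond quickly to hormones, touch or stress had larger shares than these. Others had none, as no region met any of 57 genes for cytosolic ribosomal proteins, 21 core histone genes, 51 heat shock protein and factor genes, 80 *SAUR* genes or 17 circadian clock genes. Lists of a few members move by several percent with 1 gene. All lists were drawn up with earlier results of these data known, so their shares are descriptions.

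Genes of the jasmonate pathway were often under background regions, mostly regions that wild type 2 and wild type 3 alone shared. Jasmonate is a wound and defence hormone whose bioactive conjugate triggers the destruction of JAZ proteins, repressors of the transcription factor MYC2. Of 12 *JAZ* repressor genes, 5 (41.7%) carried a region, namely *JAZ1*, *JAZ5*, *JAZ6*, *JAZ7* and *TIFY7*. None of their regions had a wild type 1 peak. At *JAZ1* (chr1:6622200-6623944) the pileups were 103, 117 and 140 in the ATH1-GFP libraries, with 150 in wild type 2, 88 in wild type 3 and no peak in wild type 1. At *JAZ7* (chr2:14573196-14574488) they were 90, 91 and 117 in the ATH1-GFP libraries, with 129 and 95 in wild type 2 and 3. *TIFY7*, which encodes another JAZ protein, had 3 regions, all under a wild type 2 peak of 148, and *JAZ5* had 2, of which 1 had no ATH1-GFP peak.

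The other genes of the pathway were listed after the regions themselves had been seen, so their count too is only a description. Of 17 genes for jasmonate synthesis, catabolism and MYC2, 9 (52.9%) carried a region. They were *LOX3* and *LOX4* (lipoxygenases), *AOS* (allene oxide synthase), *AOC3* (allene oxide cyclase), *OPR3* (oxophytodienoate reductase), *OPCL1* (a CoA ligase of the same route), *CYP94B3* and *CYP94C1* (which oxidise the active hormone) and *MYC2* itself. At *OPR3* (chr2:2358745-2360653) the pileups were 128, 136 and 134 in the ATH1-GFP libraries, against 30, 174 and 83 in the wild type. At *AOS* (chr5:17097197-17099272) they were 115, 109 and 137 in the ATH1-GFP libraries, with 149 and 74 in wild type 2 and 3. *CYP94B3* had 92, 73 and 102 in the ATH1-GFP libraries, with 145 and 84 in wild type 2 and 3. *LOX3* had 2 regions, of which 1 had 125, 118 and 114 in the ATH1-GFP libraries, against 46, 137 and 74 in the wild type, and the other had no ATH1-GFP peak. Of the 9 genes, only *OPR3* and *LOX3* had a wild type 1 peak.

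Transcription factors of stress responses followed. Of 50 ERF and DREB factor genes 5 (10%) carried a region, *ERF4*, *RRTF1*, *AT1G22190*, *RAP2.4* and *DDF1*. *ERF4*, a repressor in ethylene responses, had pileups of 235, 209 and 219 in the ATH1-GFP libraries, against 46, 212 and 110 in the wild type (chr3:5121441-5123360). *RRTF1*, a redox-responsive factor, had 178, 158 and 178 in the ATH1-GFP libraries, against 36, 193 and 98 in the wild type (chr4:16451934-16453520). In both genes the order of the wild-type libraries was the order of their filtered tags. Both regions were among the low-ratio regions, so a wild type 1 pileup far below that of wild type 2 was set by that choice. *AT1G22190* had 120, 119 and 133 in the ATH1-GFP libraries, with 138 and 81 in wild type 2 and 3, and *RAP2.4* had 143, 92 and 138, with 122 and 80.

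Of 9 genes for ZAT and related zinc finger factors 2 carried a region, *STZ* and *RHL41*. Of 71 *WRKY* genes it was 2 (2.82%), *WRKY18* and *WRKY40*, and of 125 *MYB* genes 3 (2.40%), *MYBR1*, *MYB73* and *MYB95*. The *WRKY* pair encodes defence regulators. *MYBR1* had 142, 141 and 145 in the ATH1-GFP libraries, with 172 and 95 in wild type 2 and 3. *MYB73* had 107, 129 and 126 in the ATH1-GFP libraries, against 33, 116 and 71 in the wild type. *MYB95* had 2 regions, both at 86 in ATH1-GFP 1 and 1 of them at 124 in ATH1-GFP 3, with 103 to 105 and 58 in wild type 2 and 3. Of 100 *NAC* genes 1 (1%) carried a region, *ATAF2*, close to the share of all protein-coding genes.

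Touch-inducible genes were a further group, with 4 of 16 calmodulin-like and *TCH* genes (25%) under a region. *TCH4*, which encodes a cell wall xyloglucan enzyme, had pileups of 188, 169 and 186 in the ATH1-GFP libraries, against 37, 189 and 104 in the wild type (chr5:23306682-23308228). It was the only carrier of a region among 33 *XTH* genes. *TCH3*, a calmodulin-like calcium sensor, had 141, 129 and 147 in the ATH1-GFP libraries, with 118 and 60 to 61 in wild type 2 and 3. *TCH2* had 106, 101 and 106, with 82 and 51, and *CML38* had 109, 100 and 126, with 138 and 72. Of the 4 genes, only *TCH4* had a wild type 1 peak. The auxin-responsive *Aux/IAA* genes had 1 carrier among 32, *IAA2*.

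Dehydration and cold genes were listed after the regions had been seen. Of 17 *ERD* genes 6 (35.3%) carried a region, *ERD4*, *ERD7*, *ERD10*, *ERD14*, *ERD15* and *GSTF10*, and of 12 cold-regulated genes 4 (33.3%), *COR47*, *ERD10*, *KIN2* and *LTI78*. At *ERD7* (chr2:7755240-7757688) the pileups were 151, 166 and 140 in the ATH1-GFP libraries, against 43, 181 and 109 in the wild type. At *ERD10*, a dehydrin gene, they were 120, 112 and 137 in the ATH1-GFP libraries, with 165 and 85 in wild type 2 and 3. *ERD14*, another dehydrin gene, had 132, 125 and 155 in the ATH1-GFP libraries, with 144 and 87 in wild type 2 and 3. *ERD15* had 159, 153 and 191 in the ATH1-GFP libraries, against 41, 194 and 125 in the wild type. *KIN2* had 93, 95 and 116 in the ATH1-GFP libraries, with 144 and 85 in wild type 2 and 3. Among these dehydration and cold genes, only *ERD7* and *ERD15* had a wild type 1 peak.

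Photosynthesis genes were under regions in 4 of 50 cases (8%), all of them genes for light-harvesting proteins, and at low levels. *LHCA4* had pileups of 85, 100 and 93 in the ATH1-GFP libraries, with 96 and 56 in wild type 2 and 3. *CAB1* had 2 regions, with ATH1-GFP pileups of 90 to 101, and 114 in wild type 2. *LHB1B2* had peaks in ATH1-GFP 1 and 2 (98 and 93) and *LHCB6* in none, against 104 and 107 in wild type 2. No photosynthesis region had a peak in wild type 1.

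Polyubiquitin genes lay among the low-ratio regions. *UBQ13* had pileups of 238, 217 and 346 in the ATH1-GFP libraries, against 51 to 76, 211 and 89 to 103 in the wild type. *UBQ11* had 158, 147 and 158 in the ATH1-GFP libraries, against 33, 166 and 83 in the wild type. *UBQ10* had 83 and 76 in ATH1-GFP 1 and 2, no peak in ATH1-GFP 3, and 42, 136 and 74 in the wild type. These genes hold near-identical repeated units, so reads may be split or misplaced among them. They were named after their values had been seen.

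Some tRNA genes and pseudogenes had far higher pileups than these genes. Of 625 tRNA genes 9 (1.44%) lay under a region. *AT2G07763*, *AT2G07764* and *AT2G07746*, and the pseudogene *AT2G07731*, lay in the crowded bin at 3 to 4 Mb of chromosome 2. At tRNA genes outside this bin, ATH1-GFP pileups were as low as 66. *AT2G07763* and *AT2G07764* shared a region with 525, 534 and 563 in the ATH1-GFP libraries, against 466, 525 and 493 in the wild type, and *AT2G07746* had peaks in ATH1-GFP 1 and 2 of 343 and 361 and wild-type peaks of 202, 366 and 268. At *AT4G08345* and the pseudogene *AT4G08340* (chr4:5267653-5268549), fold enrichment was 11.1, 11.6 and 9.30 in the ATH1-GFP libraries, against 14.5, 10.3 and 12.8 in the wild type, with pileups of 493, 503 and 506 against 448, 501 and 489. The pseudogene *AT2G07080* had 532, 536 and 540 in the ATH1-GFP libraries, against 511, 540 and 534 in the wild type, and *AT2G07731* had 568, 563 and 583 against 461, 572 and 540. Of 326 microRNA genes 2 and of 369 genes for small nucleolar and nuclear RNAs 1 carried a region.

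**Figure D5:**
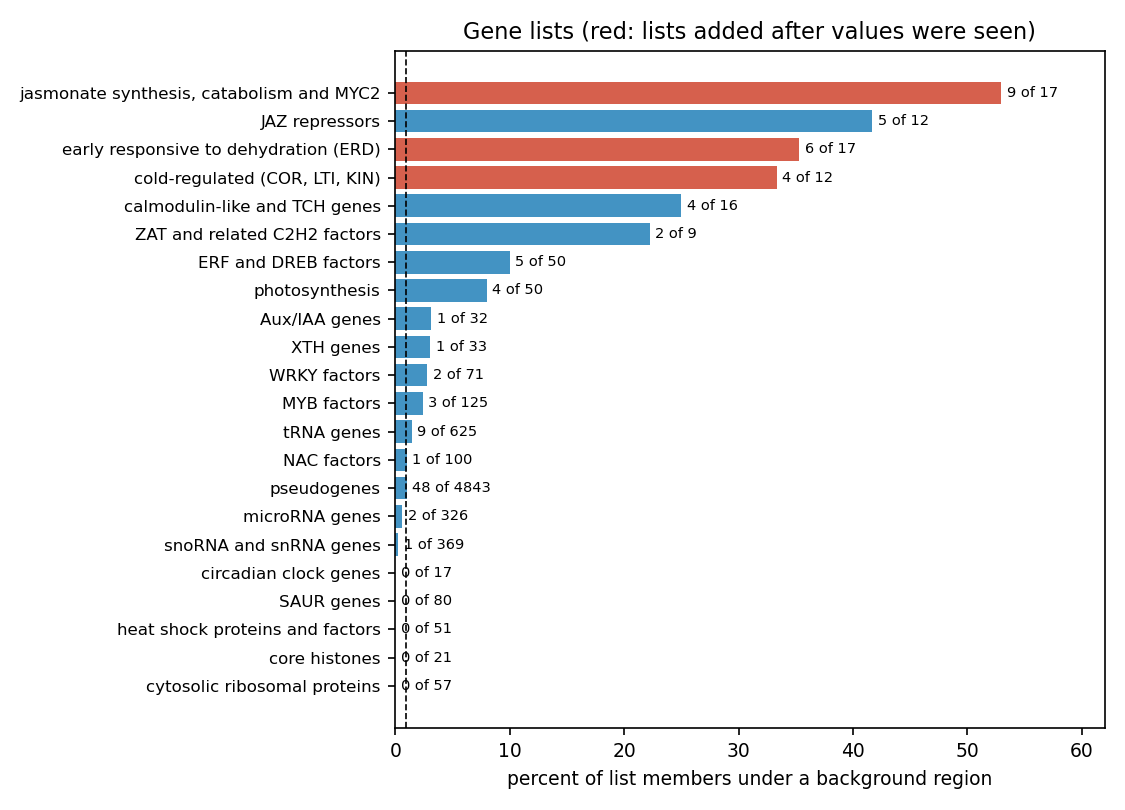
Percent of each gene list under a background region, with counts beside the bars and the share of all protein-coding genes (0.959%) as a dashed line. Blue lists came from gene symbols or types, with earlier results of these data known, and red lists were added after the values were seen. The jasmonate lists stand highest, at 9 of 17 and 5 of 12, and 5 of the plotted lists have no member under a region.

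Background regions also met the study's list of ATH1 targets, which its authors had filtered against these wild-type libraries. The list holds 629 windows, each reaching up to 3000 nt before and 1500 nt after its gene and cut at neighbouring genes. Of these windows 130 (20.7%) held a background region, and 124 of the 496 regions (25%) lay in at least 1. The authors filtered peaks rather than windows, and a window can hold a region beside a separate ATH1-GFP peak. Whether the peak that listed a gene was the one at the region was not examined here. With a region required in all 3 wild-type libraries it was 29 windows, and it was 30 without wild type 2 and 33 without wild type 3. The gene body lay under a region in 90 of 620 listed genes with a RefSeq entry (14.5%), against 0.948% of all annotated genes. Listed genes had been chosen for peaks in all 3 ATH1-GFP libraries, so all genes are not a like baseline. Of the stretches shared by at least 2 ATH1-GFP libraries, 32.1% met a region. The share of windows of all genes that held a region was not computed, because the gene table used here gives no strand.

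Regions in listed windows were mainly those over genes. In the windows lay 37.4% of the regions over protein-coding genes, 18.5% of those over other annotated features and 3.92% of those over no gene. Of the 336 regions with peaks of all 3 ATH1-GFP libraries, 237 were in no listed window. The study names 23 genes as bound by ATH1, of which 22 had a listed window, and none of these windows held a background region. Among the genes with low-ratio regions, *TCH4*, *WRKY40*, *OPR3*, *ERD15* and *UBQ11* had a region in a listed window, while the regions of *ERF4*, *RRTF1* and *ERD7* were in none.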

How the data were processed

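The 6 ChIP-seq libraries (50 bp single-end reads) were aligned by the authors to TAIR10 with Bowtie2, and peaks were called per library with MACS2 2.0.10, per the file headers without a control file, with tags extended to 300 nt, 1 tag per position, 90000000 nt as effective genome size and 0.05 as q-value cutoff. The deposited tables give pileup (a signal in extended tags), fold enrichment (a ratio to the local level) and −log10 of the q-value for each peak. The authors' table of targets gives window coordinates, and its other columns were not used.

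Regions were built with Python 3 (numpy, pandas). An overlap was at least 1 nt. Genes came from the RefSeq table for TAIR10.1, whose ends matched edges of 307 of 620 listed windows. It has no strand here, so position relative to gene starts, planned earlier, was not computed. Overlap code was tested on simulated intervals. Library values were compared with exact permutation or sign-flip tests. The labels call replicates biological, without naming separate cultures.

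Members and lists were chosen with earlier results of these data known. Genes given with values were those at the 12 highest and 5 longest regions and the *UBQ* genes, chosen after their values were seen. In lists with at least 3 carriers, up to 4 were given with values, by mean wild-type pileup per 1000000 tags. Further carriers, and carriers of other lists, are named without values. Alternatives were stricter peaks, larger overlaps, other joins, all 3 wild-type libraries, each library left out, pairing by replicate number and all mapped tags as depth. Sequences of the regions were not analysed here.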

Additional observations from a re-analysis of the deposited data

How the results depend on the processing

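Among 64 alternative values, none of the differences changed direction. Counts and shares have no direction to change, and several values differed in size. With all 3 wild-type libraries required there were 198 regions, a mean of 97.6% had an ATH1-GFP peak, 26.8% lay over protein-coding genes and 29 listed windows held one. Leaving out a wild-type library gave 219 to 447 regions, 84.4% to 93.5% with an ATH1-GFP peak, 26.5% to 61.3% over protein-coding genes and 30 to 127 listed windows. Leaving out an ATH1-GFP library gave 77.6% to 83.6% of regions with an ATH1-GFP peak. The held-out difference was 4.51 to 23.4 percentage points when a wild-type library was left unscored and 14.8 to 18.8 without an ATH1-GFP library. The differences within ATH1-GFP libraries reached 0.446 in fold and 6.61 in pileup per 1000000 tags with all 3 wild-type libraries. Peaks at q below 0.001 left 472 regions and joining those under 300 nt apart left 424. With an overlap of 50% of the shorter interval the windows were 106. With all mapped tags as depth the pileup difference was 1.51 per 1000000 tags. Taking same-numbered libraries as pairs (replicate block), the held-out difference was 17.5 percentage points (two-sided exact sign-flip *P* = 0.25, the smallest possible). Whether equal numbers pair the libraries could not be decided. Over 174 regions with peaks in all 6, depth-scaled log2 pileups of same-numbered libraries correlated at 0.05, -0.43 and -0.49, after subtraction of group means. With 3 libraries per group, this subtraction ties their values to each other, so low correlations do not settle pairing. Left-out wild-type libraries in the held-out comparison and in the position of regions, and the position under stricter peaks and all 3 libraries, were added after the data were seen. Depth limits the counts of peaks, and a region without a peak in a library is not shown to lack signal there.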
